A study of Mus musculus with 6 samples.

Results

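The SOXF factors Sox7, Sox17 and Sox18 and the ETS factors Erg, Fli1, Ets1, Ets2, Elk3 and Etv6 are transcription factors of endothelium. They were taken by a list of gene symbols, as 9 of the 18404 genes in the count table. All 9 passed the filter on low counts. Poly(A) RNA of mouse ear skin, taken on postnatal day 3, was sequenced in 3 libraries labelled Vegfr2ecko (ecko below, an induced endothelial knockout of Kdr, the VEGFR2 gene) and 3 libraries labelled Control. Tamoxifen is recorded for both groups, and the series' design text gives 60 µg per day from postnatal day 1 for the neonatal schedule, while the series title gives 48 h. The labels name neither the Cre driver nor the genotype of the controls, and the design text speaks of littermate controls. They do not say whether replicates are separate animals, so p-values measure only the spread between these libraries.

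SOX proteins bind DNA through a high-mobility-group (HMG) box, and the SOXF subfamily acts in arterial, venous and lymphatic endothelium with overlapping roles. ETS proteins bind sites with a GGAA core through a winged helix-turn-helix domain, and nearly all known endothelial enhancers carry such sites. In mice, SOX18 switches on Prox1 at the start of lymphatic development, and ERG maintains the expression of endothelial junction and identity genes. Sox7, Sox17, Sox18 and Erg are treated here as endothelial-restricted, and Fli1, Ets1, Ets2, Elk3 and Etv6 as broadly expressed. This split rests on textbook knowledge, since bulk skin RNA gives no cell type. It is a simplification: Sox18 is also known in hair follicle mesenchyme, Erg in cartilage, and Fli1 and Ets1 in blood cells.

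The coding sequences of the DNA-binding domains show how alike the members are, which bears on whether reads can be assigned to 1 gene. Below are 60 bases of each, 5′ to 3′, from GENCODE M21 transcripts of GRCm38. For the SOXF factors they start in the conserved N-terminal part of the HMG box, and capitals mark bases that differ from Sox18.
Sox18: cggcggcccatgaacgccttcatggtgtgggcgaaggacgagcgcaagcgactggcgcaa
Sox17: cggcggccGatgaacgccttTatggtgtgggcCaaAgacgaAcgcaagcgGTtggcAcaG
Sox7: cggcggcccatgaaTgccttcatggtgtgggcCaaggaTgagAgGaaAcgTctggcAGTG

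For the ETS factors the 60 bases cover the recognition helix, which contacts the GGAA core, and capitals mark bases that differ from Erg.
Erg: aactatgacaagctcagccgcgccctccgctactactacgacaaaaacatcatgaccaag
Fli1: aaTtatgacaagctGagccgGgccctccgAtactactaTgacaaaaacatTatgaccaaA
Ets1: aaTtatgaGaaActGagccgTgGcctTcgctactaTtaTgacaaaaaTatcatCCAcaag
Ets2: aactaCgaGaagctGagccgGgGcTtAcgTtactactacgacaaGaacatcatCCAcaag
Elk3: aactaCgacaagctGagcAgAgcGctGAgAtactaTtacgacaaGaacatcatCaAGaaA
Etv6: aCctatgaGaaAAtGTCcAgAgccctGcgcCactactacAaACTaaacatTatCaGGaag

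The stretches are coding exon sequence at chr2:181671225-181671284 (Sox18, minus strand, exon 1), chr1:4493143-4493202 (Sox17, minus strand, exon 4) and chr14:63943891-63943950 (Sox7, plus strand, exon 1). Those of the ETS factors lie at chr16:95361106-95361165 (Erg, minus strand, exon 11), chr9:32424085-32424144 (Fli1, minus strand, exon 9), chr9:32754255-32754314 (Ets1, plus strand, exon 8), chr16:95718965-95719024 (Ets2, plus strand, exon 10) and chr6:134263034-134263093 (Etv6, plus strand, exon 7). The Elk3 stretch spans the junction of exons 2 and 3 on the minus strand, between positions 93265666 and 93284813 of chromosome 10. Erg and Fli1 were the closest pair, with 53 of 60 bases identical, and Ets2 and Etv6 the most distant ETS pair, with 38. Sox17 and Sox18 shared 51 of 60 bases. Over whole principal transcripts the longest identical run between 2 SOXF members was 29 bases, and between 2 ETS members 22 bases.

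The deleted gene was checked first. Kdr (chr5:75932827-75979072) had 348, 431 and 370 counts in ecko 1 to 3, against 1599, 1860 and 1337 counts in control 1 to 3, and its log2 fold change was -2.05 ± 0.12 (SE; edgeR adjusted p 0.0002). Libraries held 16987130 to 17979182 expected counts. The labelled tissue fitted its markers, with summed keratinocyte genes at 20112 to 22843 CPM in ecko and 19157 to 25235 CPM in controls. Control 3 had the lowest summed skeletal muscle genes (3627 CPM, against 4961 to 5873 CPM in ecko and 5374 to 6362 CPM in the other controls). Control 2 and ecko 3 had almost no reads of the Y-linked gene Ddx3y (6 counts in ecko 3 and 4 in control 2, against 1445 to 1641 in the other libraries).

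None of the 9 factors differed between ecko and control skin past the test. The test was edgeR's quasi-likelihood test, with p-values adjusted over all 14920 genes tested, and 0.0067% of those genes passed at an adjusted p of 0.05, Kdr alone, lower in ecko. At an unadjusted p under 0.05 there was 1 member of 9, Elk3, lower in ecko, where the share over all genes was 9.01% (4.1% lower and 4.92% higher in ecko). It was also the 1 member whose groups did not overlap, where the share over all genes was 15.7% (8.11% lower and 7.55% higher in ecko). Both shares put 1 in 9 near the background. DESeq2 and limma-voom called 0 members as well. Of the 9 members, 7 had a lower mean in ecko, where 50.5% of all genes did.

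The members spanned a wide range of levels in skin, compared here as CPM (the share of a library's counts, scaled to a common depth) per kilobase of the principal transcript. Ets2 was the most abundant at 62.0 in ecko and 63.6 in controls, or 62.8 ± 1.94 over all libraries (SD, n = 6). Sox18 came next at 27.6 ± 3.36 in ecko and 26.8 ± 4.11 in controls (SD, n = 3). Elk3, Etv6 and Ets1 followed with means over the 6 libraries of 14.5, 13.3 and 12.6, and their ranges overlapped. Sox7 lay lower at 8.63, and Erg (6.03) and Fli1 (5.30) overlapped each other. Sox17 was the least abundant of the 9 at 2.33, about as scarce in ecko (2.44 ± 0.0522) as in controls (2.22 ± 0.337; SD, n = 3). With the union of all annotated exons as the length, Sox7 (8.63) stood above Ets1 (7.56), and the other positions in the order did not change.

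**Figure D1:**
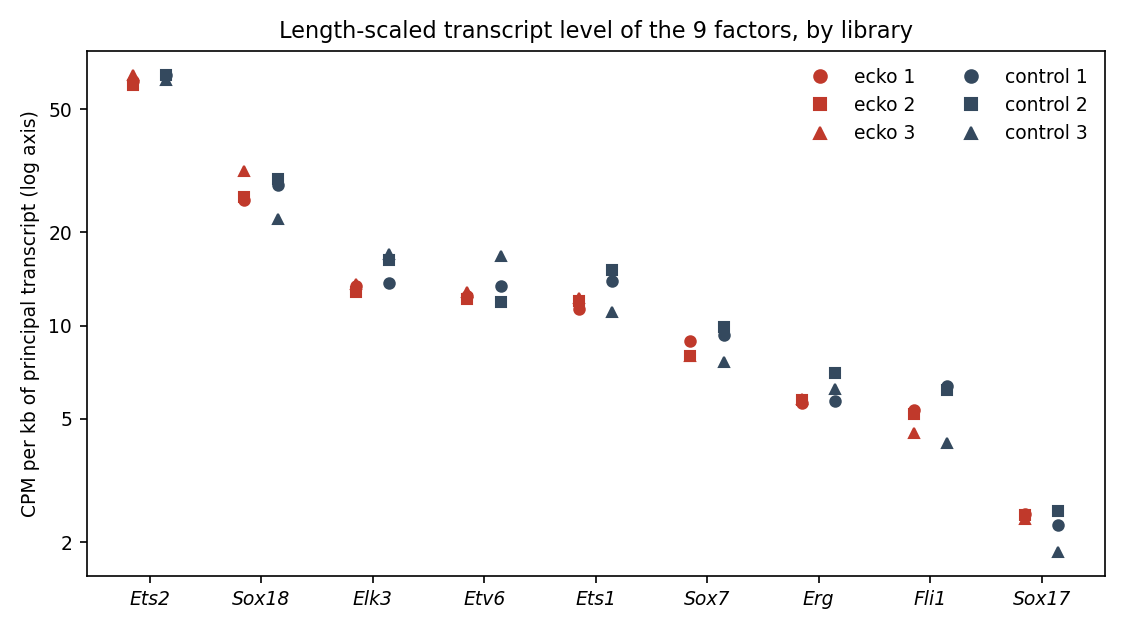
Level of each factor in CPM per kilobase of its principal transcript (log axis), with ecko libraries in red to the left of control libraries in dark blue and 1 symbol per replicate number. Ets2 lies highest (60.0 to 64.6 over the 6 libraries) and Sox17 lowest (1.86 to 2.53), and the groups overlap in 8 of the 9 genes.

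Among the SOXF factors no shared direction appeared. Sox18 (chr2:181669837-181671640), the factor upstream of Prox1, had 41.1, 42.1 and 51.0 CPM in ecko 1 to 3, against 46.0, 48.3 and 35.8 CPM in control 1 to 3. The highest value was in ecko and the lowest in control 3, and the groups overlapped. Its log2 fold change was 0.04 ± 0.12 (SE), with an adjusted p of 0.925 by edgeR. Without control 3 it was -0.07, and without ecko 3 -0.06. The 95% interval of the edgeR fit ran from 0.849 to 1.25 as a fold. Hair follicle markers, given beside Sox18, summed to 243 to 264 CPM in ecko and 238 to 249.8 CPM in controls.

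Sox17 (chr1:4490928-4497426), known for arterial identity, had 7.73, 7.68 and 7.43 CPM in ecko, against 7.08, 7.91 and 5.82 CPM in controls. The ecko libraries lay within the spread of the controls and close to each other. The log2 fold change was 0.13 ± 0.15 (SE; edgeR adjusted p 0.801), with an interval of 0.875 to 1.37 as a fold. It was 0.03 without control 3 and 0.24 without control 2. This gene rests on 101 to 143 counts per library, the fewest of the 9. Over 804 exonic bases it overlaps the annotated transcript Gm37587 on the opposite strand, and as the strand setting of the counting is not stated, reads of both cannot be told apart.

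Sox7 (chr14:63943706-63950732) had 29.5, 26.3 and 26.3 CPM in ecko, against 30.8, 32.8 and 25.2 CPM in controls. In 2 controls it was higher than in any ecko library, and in control 3 lower than in all of them. The log2 fold change was -0.11 ± 0.11 (SE; edgeR adjusted p 0.768), between 0.783 and 1.09 as a fold. It was -0.21 without control 3, -0.17 without ecko 1 and -0.04 without control 2.

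Erg (chr16:95359169-95586600), the ETS factor that marks endothelium most closely, had 18.3, 18.7 and 18.9 CPM in ecko, against 18.5, 22.9 and 20.2 CPM in controls. Control 1 fell among the ecko values and the other 2 controls lay above them. The log2 fold change was -0.14 ± 0.10 (SE; edgeR adjusted p 0.690), with a fold interval of 0.774 to 1.06. It was -0.06 without control 2 and -0.21 without control 1. Cartilage markers were given beside Erg because cartilage expresses it, and 4 of the 7 passed the filter. Of the others, Matn1 and Matn3 had 0 to 2 counts per library, and Cnmd had 9, 7 and 13 in ecko and 7, 7 and 2 in controls. The 4 summed to 19.0 to 21.3 CPM in ecko and 19.4 to 22.4 CPM in controls. Most of this sum was Acan, with means of 15.5 CPM in ecko and 16.7 CPM in controls. Of the 4, 1 had a higher and 3 a lower mean in ecko.

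Fli1 (chr9:32422204-32543432), the closest relative of Erg, is active in both endothelium and blood cells. It had 17.8, 17.2 and 14.9 CPM in ecko, against 21.2, 20.5 and 13.9 CPM in controls. Control 3 was the lowest library and the other controls the highest, so the groups overlapped. The log2 fold change was -0.16 ± 0.16 (SE; edgeR adjusted p 0.778), and its fold interval, 0.704 to 1.14, reached lower than that of any other member. It was -0.32 without control 3, and -0.05, -0.08 and -0.09 without control 1, control 2 and ecko 3.

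Ets1 (chr9:32636241-32757820), a factor of endothelium and lymphocytes, had 57.3, 61.2 and 62.4 CPM in ecko, against 70.8, 76.6 and 56.3 CPM in controls. Here too control 3 lay below all ecko libraries and the other controls above. Ets1 had a log2 fold change of -0.17 ± 0.11 (SE; edgeR adjusted p 0.643), between 0.755 and 1.04 as a fold. It was -0.28 without control 3 and -0.08 without control 2. Of the blood cell markers, all 9 leukocyte genes had a higher mean in ecko, where 7381 of all 14920 genes tested did. In 4 of the 9 all ecko libraries were above all controls, against 7.55% of all genes. The list was chosen with earlier results of these data known. The 9 genes summed to 304 to 336 CPM in ecko and 267 to 309 CPM in controls. The 6 T lymphocyte genes summed to 12.5 to 15.6 CPM in ecko and 12.9 to 17.1 CPM in controls. None of these markers passed the test, and their part in the Fli1 and Ets1 values was not tested.

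Elk3 (chr10:93247415-93311159), also called Net, a ternary complex factor that represses serum response genes, showed the lowest p of the 9. It had 56.4, 54.2 and 57.3 CPM in ecko, against 57.9, 68.3 and 71.8 CPM in controls. All ecko libraries were below all controls, though ecko 3 and control 1 differed by less than 1 CPM. The means were 56.0 ± 1.57 CPM in ecko and 66.0 ± 7.26 CPM in controls (SD, n = 3), and the log2 fold change was -0.24 ± 0.09 (SE). The edgeR p was 0.0182 unadjusted and 0.498 adjusted, which ranks it 543rd among the genes tested. Elk3 shares 316 exonic bases with Cdk17 on the opposite strand, and the same limit holds as for Sox17. The part of Cdk17 reads in the Elk3 counts was not tested. Cdk17 had 33.4 ± 1.84 CPM in ecko and 35.1 ± 0.478 CPM in controls (SD, n = 3; log2 fold change -0.07, edgeR adjusted p 0.798).

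Etv6 (chr6:134035700-134270158), also called Tel, is a repressor needed in blood formation and vessel maintenance. It had 69.1, 67.7 and 71.1 CPM in ecko, against 74.5, 65.9 and 93.4 CPM in controls. Control 2 was the lowest and control 3 the highest library. Its log2 fold change was -0.17 ± 0.11 (SE; edgeR adjusted p 0.676), between 0.746 and 1.06 as a fold, and it was -0.01 without control 3 and -0.28 without control 2. Over 135 exonic bases it overlaps the annotated antisense transcript Gm17089 on the opposite strand, and the same limit holds as for Sox17.

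Ets2 (chr16:95702407-95721049), a factor downstream of RAS and ERK signalling that skin expresses in many cell types, was the steadiest. It had 239, 233 and 251 CPM in ecko, against 250, 251 and 241 CPM in controls. For Ets2 the log2 fold change was -0.04 ± 0.06 (SE; edgeR adjusted p 0.868), and the fold interval of 0.891 to 1.07 was the narrowest of the 9. Without ecko 2 it was -0.01 and without ecko 3 -0.07.

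**Figure D2:**
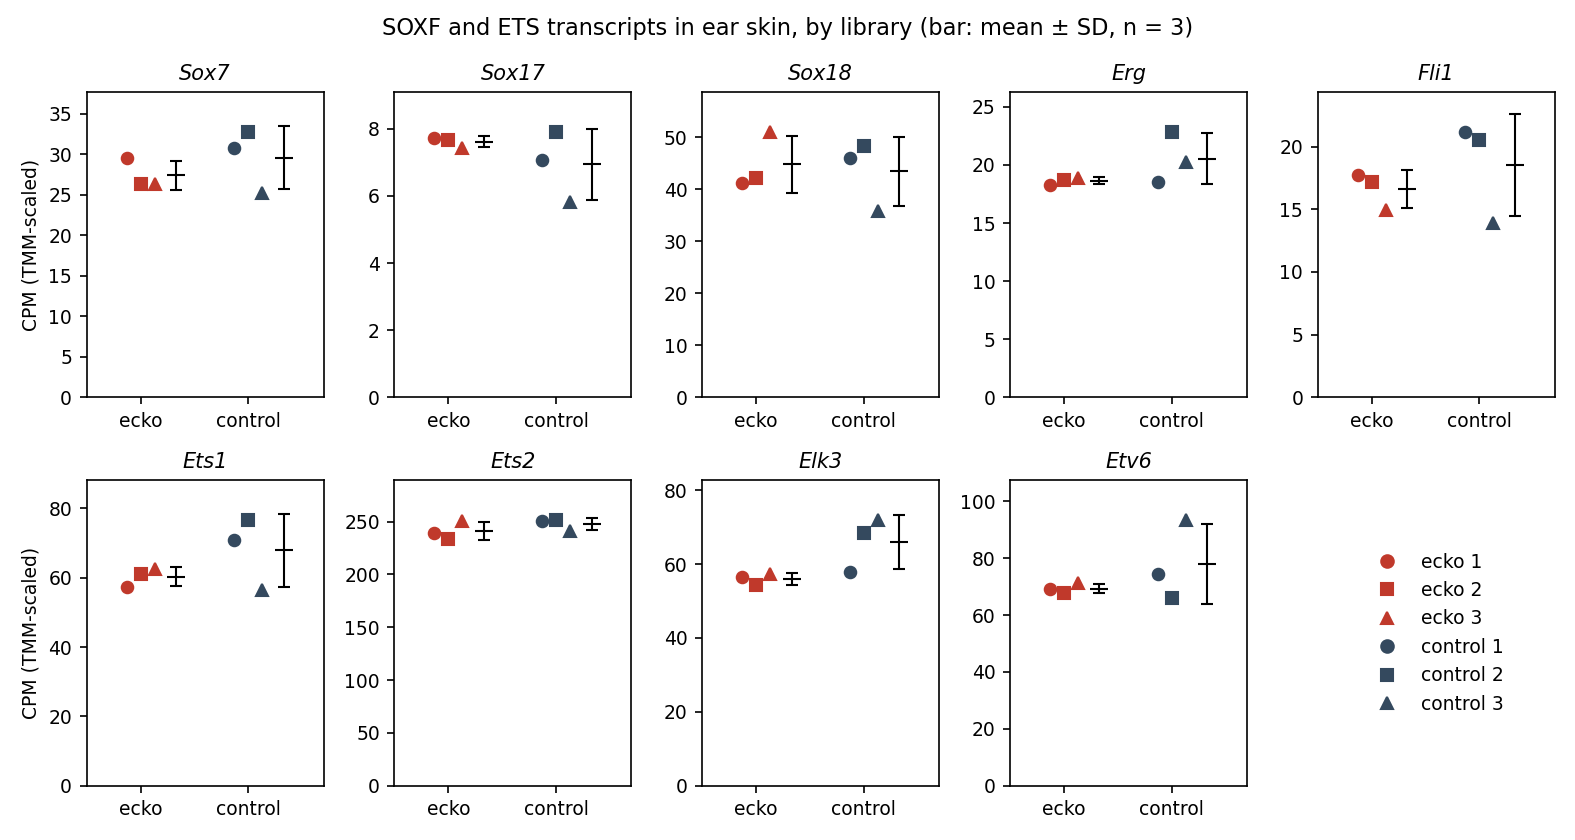
CPM of each factor in each library, with axes from 0, ecko left of control and 1 symbol per replicate number; the bar beside each group is the mean ± SD of 3 libraries. The ecko libraries lie close together and mostly inside the spread of the controls, and in Elk3 they lie below all 3 controls.

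The spread between controls was the larger one for most members. The coefficient of variation was smaller in ecko than in controls for 8 of 9, the exception being Ets2. The share over all genes was not computed, so this is not shown to be a trait of the members. Genes of other tissues showed it too, such as Acta1 (SD 271 CPM in ecko, 765 CPM in controls) and Krt10 (SD 659 CPM in ecko, 1609 CPM in controls). Rgs5 went the other way (SD 15.7 CPM in ecko, 5.74 CPM in controls). For Sox17 it was 2.15% in ecko and 15.2% in controls, and for Etv6 2.46% in ecko and 18.0% in controls. Control 3 was the lowest of the 6 libraries in 5 members (Sox7, Sox17, Sox18, Fli1 and Ets1) and the highest in 2 (Elk3 and Etv6). Control 2 was the highest in 5 members (Sox7, Sox17, Erg, Ets1 and Ets2) and the lowest in 1, Etv6. For these counts of extreme libraries, too, no share over all genes was computed. The low muscle level of control 3 and the missing Y-linked reads of control 2 stand beside these values, and their part in them was not tested.

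The endothelial-restricted and the broadly expressed factors were compared next. Of the 4 restricted ones 2 had a higher and 2 a lower mean in ecko, and their log2 fold changes had a median of -0.03. All 5 broad ones had a lower mean, and their median was -0.17. By family, all 6 ETS members, Erg included, had a lower mean, with a median of -0.16. Of the 3 SOXF members 2 had a higher and 1 a lower mean, with a median of 0.04. All broad factors are ETS factors, and Erg is the only ETS factor among the restricted ones. Breadth of expression and gene family therefore cannot be told apart here. The median over all genes tested was -0.002. Without control 2 the median of the restricted factors was 0.04 and that of the broad ones -0.08. Without control 3 the median of the restricted factors was -0.11. The mean log2 CPM of the restricted minus the broad factors was -1.61, -1.62 and -1.58 in ecko 1 to 3, against -1.74, -1.61 and -1.86 in control 1 to 3. Control 2 lay among the ecko libraries, so this contrast overlapped between the groups. The mean log2 CPM of the broad factors alone was 5.95 to 5.97 in ecko and 6.05 to 6.15 in controls, without overlap. Of these 5 genes only Elk3 had no overlap by itself. Control 3 was the highest library for Elk3 and Etv6 and the lowest for Fli1 and Ets1. No share over all genes was computed for such a mean, and for single genes it was 8.11% lower in ecko. The mean log2 CPM of the restricted factors was 4.33 to 4.39 in ecko and 4.19 to 4.54 in controls.

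**Figure D3:**
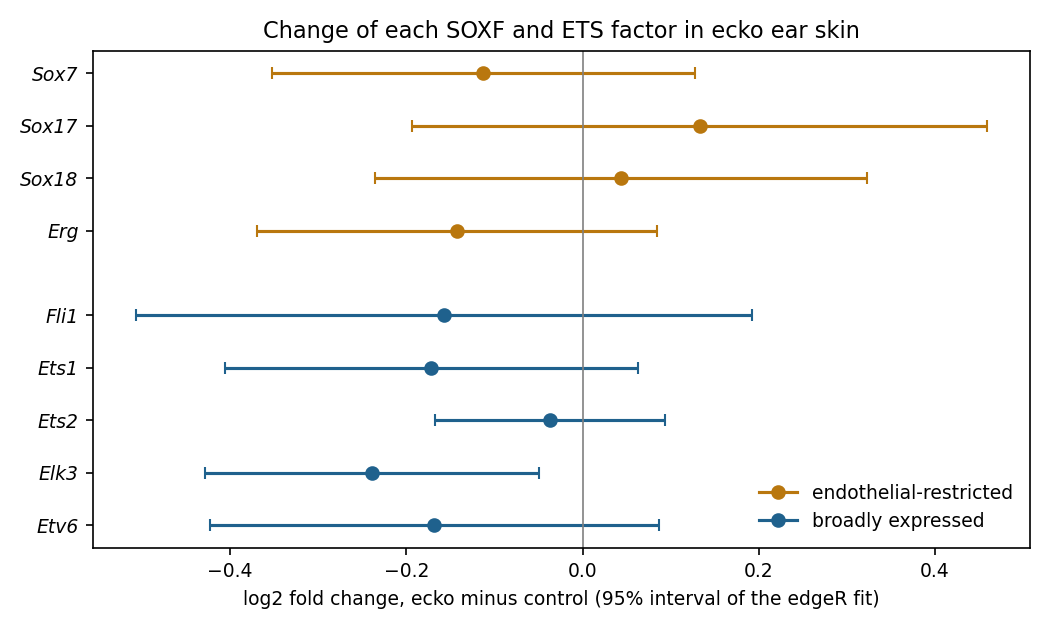
Log2 fold change of each factor, ecko minus control, with the 95% interval of the edgeR fit; endothelial-restricted factors are above and broadly expressed ones below. The intervals of 8 factors include 0, and that of Elk3 runs from -0.43 to -0.05 before any adjustment for the number of genes.

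Among the ETS members there are 2 pairs of chromosomal neighbours in opposite orientation with no annotated protein-coding gene between them. Erg and Ets2 are separated by 115806 bases on chromosome 16, and Fli1 and Ets1 by 92808 bases on chromosome 9. Fli1 and Ets1 had log2 fold changes of -0.16 and -0.17, and control 3 was the lowest library in both. Erg and Ets2 had -0.14 and -0.04. As a description over 6 libraries that share depth and tissue content, log2 CPM correlated at r = 0.79 for Fli1 with Ets1 and at r = 0.39 for Erg with Ets2. Members on different chromosomes reached like values, with r = 0.91 for Sox7 with Fli1, 0.80 for Erg with Elk3 and 0.79 for Sox7 with Ets1.

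Endothelial markers had lower means in ecko. The mean was below that of controls for all 12 markers, where 50.5% of all genes had a lower mean in ecko. The median was -0.21 on the log2 scale (0.867-fold), and 0 of 12 passed the test. They summed to 409 to 445 CPM in ecko and 449 to 565 CPM in controls. For 6 of the 12, every ecko library was below every control, where the share over all genes was 8.11%. The list was chosen with earlier results of these data known, so this count is a description only. The part of these markers in the members' values was not tested. Pecam1, an adhesion molecule of endothelial junctions, had 133 CPM in ecko and 149 CPM in controls. The result depends on the markers listed. Of 25 reported SOXF and ETS targets given below, many of them endothelial, 20 had a lower and 5 a higher mean, with a median of -0.11. The 7 lymphatic markers summed to 172 to 196 CPM in ecko and 179 to 193 CPM in controls. In bulk skin, fewer endothelial cells and less RNA per cell cannot be told apart. Several of these markers are themselves known ETS targets, so they are no independent measure of cell number.

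Each factor was therefore also set against the mean log2 CPM of the 12 markers in the same library. Sox17 stood at -1.47, -1.59 and -1.64 in ecko, against -1.89, -1.94 and -1.99 in controls, a difference of 0.37. Sox18 stood at 0.92, 0.84 and 1.12 in ecko, against 0.79, 0.65 and 0.61 in controls, a difference of 0.28. In these 2 SOXF genes all ecko libraries lay above all controls. The same held for 30.5% of all genes tested, with a median difference of 0.23 over all genes, since the markers themselves were lower. It also held for 7 of the 26 other endothelial transcription factors, with a median difference of 0.20. For the broadly expressed factors the ratio also carries RNA of other cells and is no level per endothelial cell. For Erg (0.09), Sox7 (0.12), Fli1 (0.09), Ets1 (0.07), Ets2 (0.19), Etv6 (0.08) and Elk3 (-0.003) the groups overlapped. Kdr differed by -1.81 on this scale. With 1 library left out, the difference of Sox17 ran from 0.32 to 0.41 and that of Sox18 from 0.20 to 0.34. Those of other members moved more relative to their size. Etv6 ran from -0.13 (without control 2) to 0.31 (without control 3), and Elk3 from -0.09 (without control 1) to 0.16 (without control 3). Fli1 ran from -0.0043 (without control 3) to 0.21 (without control 1), Sox7 from 0.03 (without ecko 1) to 0.17 (without ecko 2), and Erg from 0.03 (without control 1) to 0.18 (without control 3). Ets1 stayed between 0.04 and 0.11, and Ets2 between 0.11 and 0.27. These ratios depend on the 12 markers chosen, and other marker sets were not tried. They are given as a description, with no test.

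**Figure D4:**
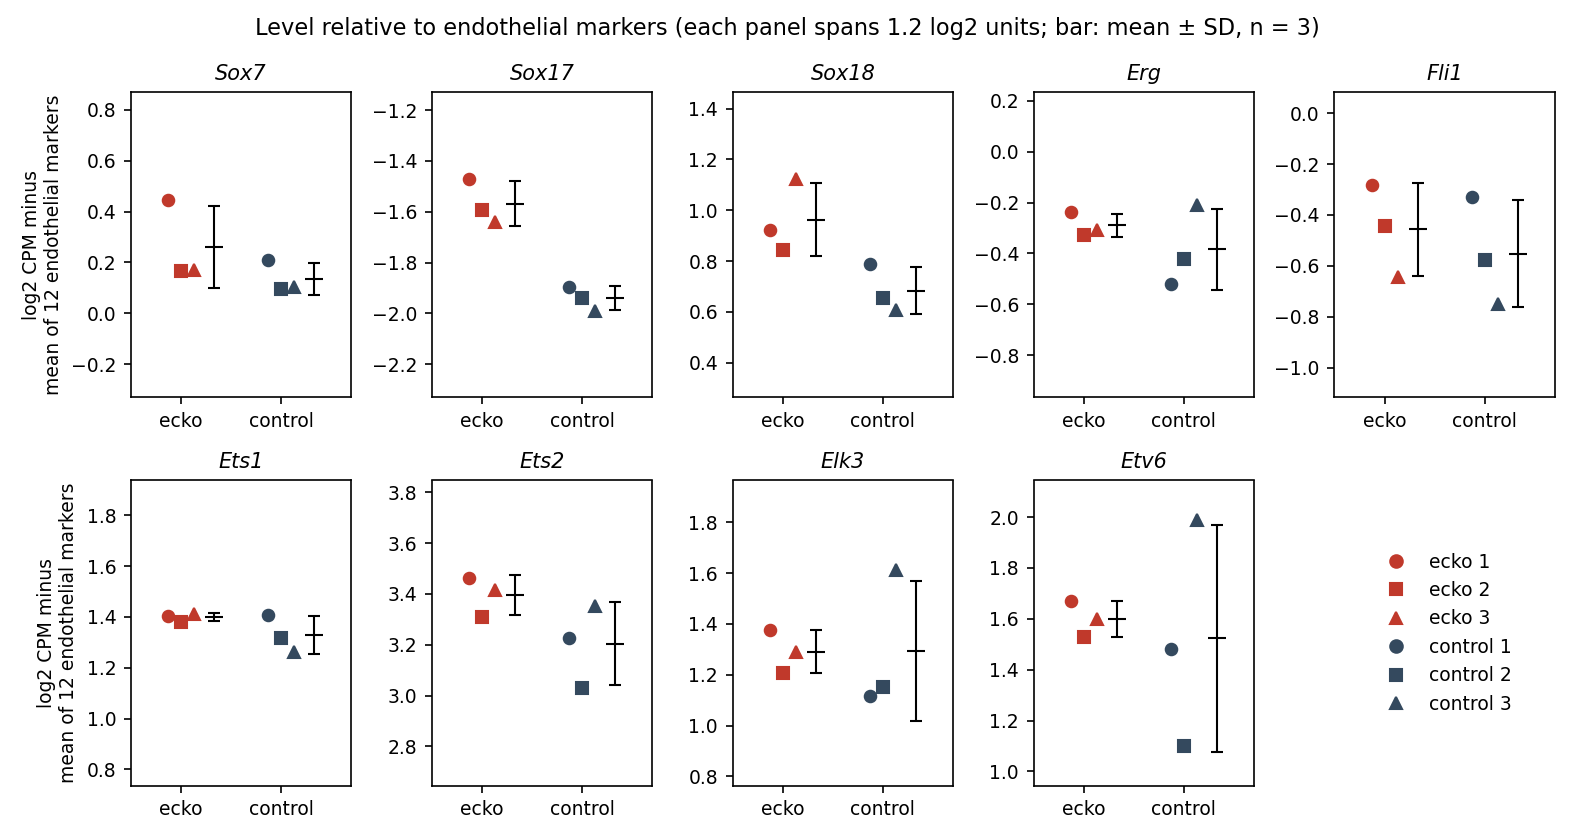
Log2 CPM of each factor minus the mean log2 CPM of 12 endothelial markers in the same library; panels differ in position but each spans 1.2 units, ecko is left of control, and bars are mean ± SD of 3 libraries. Sox17 and Sox18 show ecko libraries above all controls, and the other 7 factors overlap.

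Genes that SOXF and ETS factors are reported to control were mostly lower by their means. Of 25 such genes, 0 passed the test in either direction. The mean was lower in ecko for 20 and higher for 5, where 50.5% of all genes had a lower mean. The median on the log2 scale was -0.11. In 7 of the 25 all ecko libraries were below all controls, against 8.11% of all genes. This list too was chosen with earlier results of these data known, so these counts are a description only. The 4 smallest p belonged to the Notch ligand gene Dll4 (-0.50 ± 0.16), the roundabout receptor gene Robo4 (-0.29 ± 0.10), the apelin gene Apln (-0.45 ± 0.17) and the VEGFR1 gene Flt1 (-0.25 ± 0.09), as log2 fold change ± SE. Dll4 averaged 8.30 ± 1.26 CPM in ecko and 11.8 ± 1.78 CPM in controls (SD, n = 3; edgeR adjusted p 0.447). The most abundant gene of the list, Notch1, had 218 CPM in ecko and 232 CPM in controls. Prox1, the SOX18 target of lymphatic endothelium, had 10.8 CPM in ecko and 9.21 CPM in controls (log2 fold change 0.22 ± 0.22; edgeR adjusted p 0.778). Many genes of this target list are endothelial, and the 12 endothelial markers had a lower median, -0.21, than the targets. Regulation by these factors, endothelial RNA content and other effects of the Kdr deletion cannot be told apart here, and none of them was tested.

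Other transcription factors of endothelium gave a median of -0.03, with 0 of 26 past the test. The groups did not overlap in 2 of the 26 lower and 1 higher in ecko, where the shares over all genes were 8.11% lower and 7.55% higher, so these counts lie near or below the background. By the smallest p, Mecom, a zinc finger factor of endothelium and blood stem cells, had -0.39 ± 0.15, and Epas1, the HIF-2α gene, -0.18 ± 0.08. Foxo1 had -0.10 ± 0.07 and Hhex, a homeobox factor of early blood and vessel formation, 0.18 ± 0.14. Klf4 was the most abundant, with 246 ± 1.12 CPM in ecko and 295 ± 106 CPM in controls (SD, n = 3), and keratinocytes express it strongly too. Prox1, Klf2, Gata2, Tal1 and Lmo2 stand in this list and in the target list.

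The rest of both families showed no common direction. Of the 20 other ETS genes listed, 16 were tested and 0 passed. Their median was -0.003 on the log2 scale, and in 3 all ecko libraries were above all controls, against 7.55% of all genes. These were Etv1 (0.29 ± 0.11), the epithelial factor Elf3 (0.47 ± 0.20) and Elf1 (0.11 ± 0.06), while the ERK-responsive Etv4 had -0.19 ± 0.11. Etv3, a repressor, was the most abundant at 147 CPM in both groups. Etv2, which starts the endothelial and blood lineages in mouse embryos, had 0 to 4 counts per library and was not tested; it was named after its values were seen. Of 17 other SOX genes 12 were tested and 0 passed, with a median of -0.02. The muscle progenitor factor Sox15 had 0.56 ± 0.23 at 2.38 CPM in ecko and 1.62 CPM in controls, and Sox21 (0.14 ± 0.10), Sox6 (-0.17 ± 0.12) and Sox13 (-0.13 ± 0.11) came next by p. Sox4 was the most abundant, with 147 CPM in ecko and 146 CPM in controls. Fev and Sry had no row under these symbols in the count table, so they were not analysed.

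**Figure D5:**
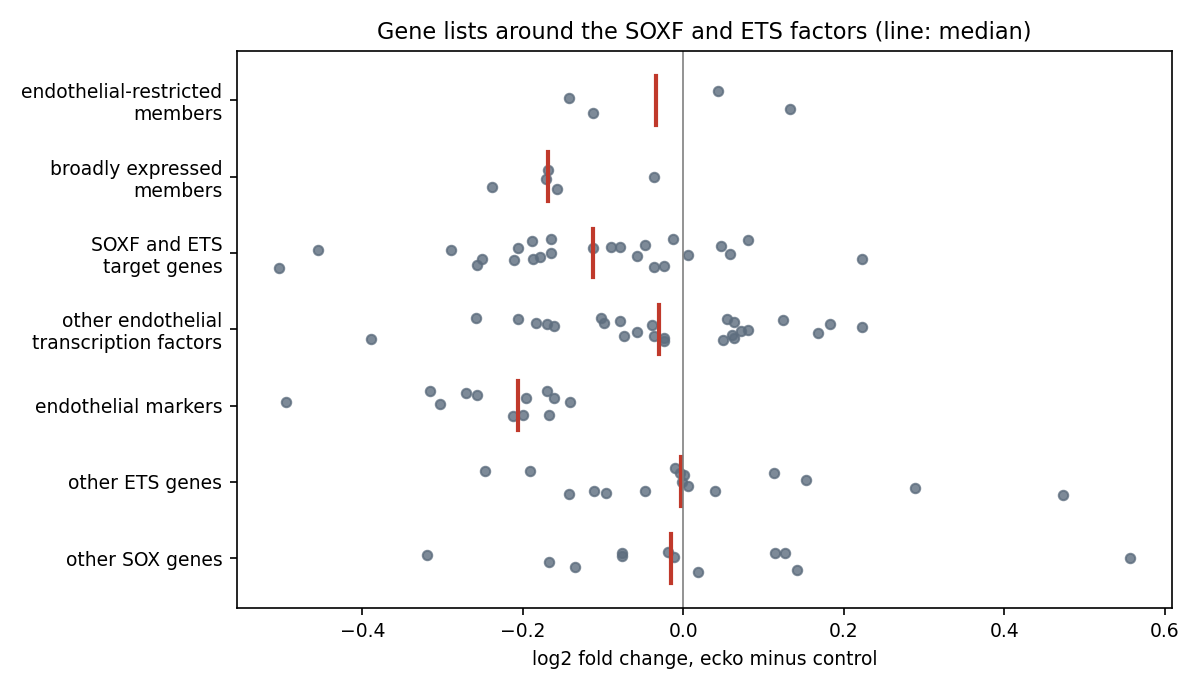
Log2 fold change, ecko minus control, of each tested gene in 7 lists, 1 point per gene with the list's median as a line. The endothelial markers all lie below 0 around -0.21, the broadly expressed members around -0.17, and the restricted members and the other SOX and ETS genes around 0.

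As a description of the 6 libraries, the 3 genes whose log2 CPM followed each restricted factor most closely were ranked by Pearson r among the 13171 genes averaging 50 counts or more. They were Nsd1, Irx3 and Coro2a for Sox18 (r of 0.999, 0.996 and 0.996), and Fam120b, Osbp and Phactr2 for Sox17 (0.996, 0.995 and 0.994). For Sox7 they were Ino80, Gimap1 and Esrra (0.991, 0.986 and 0.982), and for Erg Ppard, Fermt2 and Dact3 (0.986, 0.986 and 0.980). All points share library depth and tissue content, and with 6 libraries and this many genes such values are easily reached. Between the members themselves, Sox17 and Etv6 ran opposite at r = -0.997, with control 3 lowest for Sox17 and highest for Etv6.

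RefSeq promoter windows on GRCm38.p6, 250 bases before to 50 bases after a transcription start, were matched for 4 of the 9 members in 6 windows: Elk3, Erg (3 starts), Ets2 and Etv6. That of Elk3, the member with the lowest p, is shown, at chr10:93311110-93311409 on the minus strand, with each GGAA on either strand (GGAA or TTCC) in capitals.
Elk3: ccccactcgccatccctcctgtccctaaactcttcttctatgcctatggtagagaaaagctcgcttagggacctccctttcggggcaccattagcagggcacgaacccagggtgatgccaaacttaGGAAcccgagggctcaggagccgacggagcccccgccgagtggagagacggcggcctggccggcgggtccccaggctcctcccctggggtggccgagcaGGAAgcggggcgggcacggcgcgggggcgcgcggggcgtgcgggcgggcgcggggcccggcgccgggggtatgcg

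It holds 2 GGAA cores. Etv6 holds 6, Ets2 holds 1, and the 3 Erg windows hold 1, 2 and 4. Of 32851 RefSeq promoter windows of the same length 96.0% hold at least 1, with a median of 3, so these counts are a description and say nothing of binding. The SOX core ACAAT (or ATTGT) was in 1 of the 6 windows, an Erg one with 2 sites, and in 31.0% of all windows.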

How the data were processed

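Poly(A) RNA of 6 ear skin libraries (3 ecko, 3 control) was measured. The deposited table holds unscaled expected counts (fractional read estimates) for each gene; no source names the unit, which follows from 10.1% to 10.4% of a library's values being fractional (tolerance 1e-06). HISAT2 2.2.1, Bowtie2 2.4.5, RSEM 1.3.1 and GRCm38.p6 are named in the submitters' processing notes, without roles. Annotation and strand setting are not given in the sources used here. Groups were taken from the sample titles.

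Expected counts were rounded and tested with edgeR 4.0.16 in R 4.3.3 (filterByExpr with a minimum count of 10, TMM, robust glmQLFit, two-sided, Benjamini-Hochberg over 14920 genes, threshold 0.05), on all 6 libraries without a block. SE was derived as |log2 fold change| over √F. Intervals are 95% intervals of that fit. CPM is TMM-scaled, and log2 CPM used a prior count of 2. Precision covers the spread between libraries, and no molecular identifiers are mentioned in the labels. The script was tested on simulated data.

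Lengths and coding sequences came from GENCODE M21, promoters from RefSeq. Of the table's identifiers 18353 matched RefSeq. The members and lists were chosen with earlier results of these data known. Named were all members, Kdr, and from each of the 4 lists of related genes (other ETS, other SOX, targets, other endothelial factors) the genes past the test or else the 4 smallest p, plus the most abundant. Cell type marker lists are given as sums and counts. For each restricted factor, the 3 genes most like it were named as well. Genes named outside this rule, with values known, are Pecam1, Prox1, Cdk17, Acan, Acta1, Krt10, Rgs5 and Ddx3y, and the untested Etv2, Matn1, Matn3 and Cnmd. Alternatives were DESeq2 1.42.0 size factors and Wald test, limma-voom (limma 3.58.1), other low-count filters, a replicate block, a skeletal muscle covariate, a prior count of 0.5 and leaving out each library.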

Additional observations from a re-analysis of the deposited data

How the results depend on the processing

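No member passed the threshold under any of the 13 alternatives to the edgeR test. The lowest adjusted p of a member was 0.170 (Elk3 without control 1). Elk3 ranged from -0.33 to -0.17 in log2 fold change and stayed below 0, as did the other members apart from Sox17, which stayed above 0, and Sox18. Sox18 was at -0.0093 with the skeletal muscle covariate and from -0.0714 (without control 3) to 0.1255 (without control 2) with 1 library left out, where it was -0.0607 without ecko 3. Its groups overlap, and the cause was not tested. The median of the broadly expressed factors ran from -0.1873 to -0.0804 with 1 library left out (-0.0804 without control 2), and that of the restricted factors from -0.1095 to 0.045. Fli1 ran from -0.32 (without control 3) to -0.05 (without control 1) and Etv6 from -0.28 (without control 2) to -0.01 (without control 3).

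Counts over all genes depended on the model, with none of the members among the calls. The DESeq2 Wald test called 87 genes higher and 26 lower, the fit with a replicate block called 88 higher and 10 lower, and adding a skeletal muscle covariate gave 28 higher and 5 lower. With 1 library left out, 0 to 2 were called higher (2 without ecko 3) and 1 lower. The cause was not tested. Deviations from the group mean of libraries with equal numbers correlated at 0.182, -0.293 and -0.092 across genes. The highest value was 0.405, for ecko 3 with control 2, the libraries with almost no Ddx3y reads. These values give no sign that equal numbers pair the libraries, but they cannot exclude it. The replicate block moved no member past the threshold (edgeR adjusted p 0.461 for Elk3). Depth limits Sox17 most, with 101 to 143 counts per library.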
